A study of Mus musculus with 12 samples.

Results

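Nkx2-5 is a homeodomain protein that controls transcription in heart muscle cells, and the hearts compared here come from mice with different substitutions at 1 of its residues. In I183P mice the isoleucine at position 183 is replaced by proline, and in I183M mice by methionine. Per the labels the mice also carry a + allele, and the genotypes are Nkx2-5 I183P/+ and Nkx2-5 I183M/+. The samples were taken by title: 3 I183P arrays and 3 I183M arrays, 6 of the 12 arrays of the series. Each array was hybridised with total RNA of the heart apex of C57BL/6J males aged 15 weeks. Nkx2-5 control/+ hearts, whose knock-in allele keeps isoleucine, and Nkx2-5 delta/+ hearts, whose allele is a deletion, were read on 3 arrays each and are given here as levels only. The series compared the mutant lines with the control line, and the labels do not say whether the 3 samples of a group came from separate animals. The p-values therefore measure the spread between these samples, which may be technical.

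Nkx2-5 binds DNA through its homeodomain and acts with Gata and T-box factors on genes of contraction, conduction and chamber identity. Loss of 1 copy in people and mice is known for septal defects and slowed atrioventricular conduction. Proline interrupts protein helices, whereas methionine, like isoleucine, has a hydrophobic side chain.

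Levels are log2 intensities relative to the 75th percentile of their own array, so a level of 0 lies at that percentile and a difference of 1 is a doubling. Of 59305 spots, 51.2% to 60.5% lay well above background on each of the 6 arrays but I183M replicate 1, where 72.9% did. No spot was saturated, and rank correlations between the 6 arrays lay between 0.967 and 0.989. All 16 ventricular muscle markers of the list used were well above background on all 6 arrays and 11 of 14 atrial markers could be read as well. I183P replicate 3 lies on another slide than the other 5 arrays, which share 1 slide, and the scan session divides them the same way. All delta arrays lie on the slide of I183P replicate 3, and all control arrays on the shared slide. Where delta levels are set beside control or I183M levels, line and slide therefore cannot be told apart. Control replicate 1 stood apart, with 99.1% of its spots called well above background, and it enters no difference on the 75th percentile scale. The quantile normalization used below was run over all 12 arrays, control replicate 1 included, and so was 1 alternative fit. Delta replicate 2 had 75.2% of its spots well above background. Probes well above background on none of the 6 arrays had a median level of -5.83 on it, against -7.20 and -6.80 on the other delta arrays.

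No gene differed between I183P and I183M past the threshold, but genes of the interferon response and of antigen presentation lay mostly higher in I183P hearts. Of 22493 genes or unnamed features tested with limma, 0 passed an adjusted p under 0.05 in either direction (0.0% higher, 0.0% lower), and the smallest adjusted p was 0.0703, for a probe without a gene name. At an unadjusted p under 0.05 there were 870 higher (3.87%) and 1902 lower (8.46%). The 3 I183P arrays lay above all 3 I183M arrays for 1665 features (7.4%) and below them for 2937 (13.1%), and 42.6% of differences were above 0. With normexp background correction and quantile normalization 0 passed as well, 2958 had an unadjusted p under 0.05, and the split turned: 12.2% lay apart on the higher side, 9.68% on the lower side, and 55.6% of differences were above 0. These percentages are the background against which each group of genes is read.

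The excess on the lower side sat among dim features. In the decile of features with the lowest mean level the median difference was -0.53 and 25.6% lay apart on the lower side, against 0.01 and 9.82% in the fifth decile. Probes that were well above background on none of the 6 arrays (11945 probes) had median levels of -5.74, -6.30 and -6.04 on the I183M arrays and of -6.41, -6.30 and -7.36 on the I183P arrays. With normexp and quantile normalization the median difference of the lowest decile was 0.05. Where the difference of a gene named below moves by more than 1.5 times on that second scale, the second value, or its range over a set of such genes, is given as well.

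**Figure D1:**
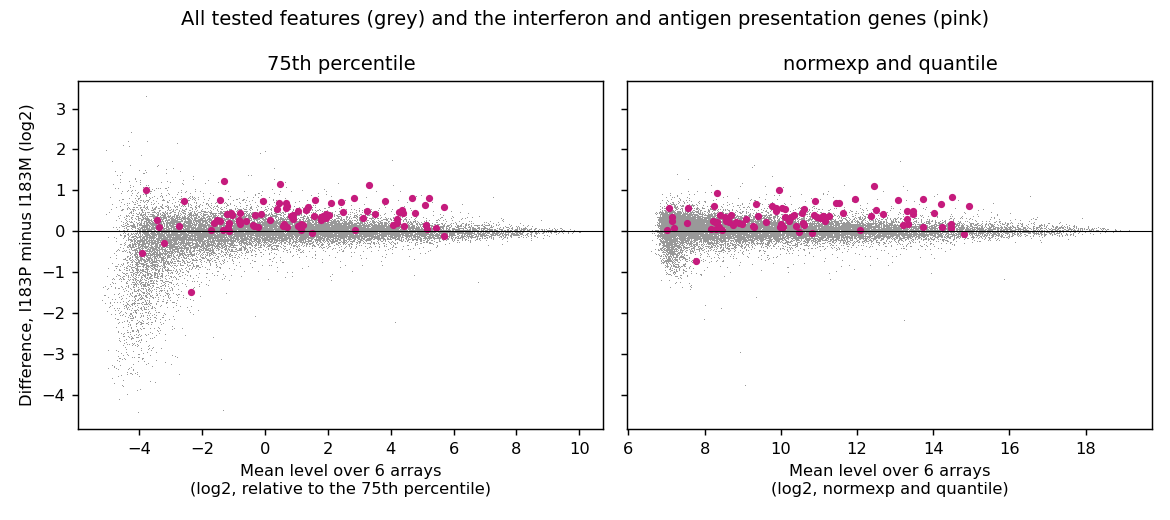
Difference between I183P and I183M (log2, vertical axis) against the mean level over the 6 arrays (log2, horizontal axis) for 22493 features in grey and 89 interferon and antigen presentation genes in pink, on the 75th percentile scale (left) and after normexp and quantile normalization (right). The dim end reaches farther below 0 on the left panel than on the right, while the pink genes lie mostly above 0 on both: 84 of 89 on the left and 85 of 89 on the right.

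Nkx2-5 itself, on chromosome 17, showed no difference beyond the spread between arrays. It was at 4.54, 4.62 and 4.56 on the I183M arrays and 4.73, 4.54 and 4.51 on the I183P arrays, and the ranges overlapped. The difference was 0.02 (95% interval -0.21 to 0.26; limma adjusted p 0.953), and an exact two-sided permutation test gave p = 0.9, where 3 against 3 arrays cannot go below 0.1. After normexp and quantile normalization it was -0.02, on the other side of 0. Delta hearts read 3.77, 3.79 and 3.93, and control replicates 2 and 3 read 4.45 and 4.56. The 1 probe counts transcripts of both alleles and does not tell them apart.

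Interferons are secreted proteins that signal through Jak kinases and Stat factors. They switch on antiviral proteins, guanylate-binding GTPases, and the machinery that cuts and presents antigen. Many of the responding promoters carry the interferon-stimulated response element, whose core is searched here on both strands as GAAA followed, after any 2 bases (NN), by GAAA again. To show what it looks like, the 150 bases before the transcription start of 4 genes that are described below are printed 5′ to 3′ on the gene's strand, with the element in capitals (RefSeq, build GRCm38.p6). The coordinates are chr2:122147537-122147686 (plus strand) for B2m, chr8:71537473-71537622 (minus strand) for Bst2, chr17:36032702-36032851 (minus strand) for H2-T23 and chr11:49064213-49064362 (minus strand) for Tgtp2. On H2-T23 the element lies on the opposite strand, and on Bst2 a pair of elements overlap.
B2m: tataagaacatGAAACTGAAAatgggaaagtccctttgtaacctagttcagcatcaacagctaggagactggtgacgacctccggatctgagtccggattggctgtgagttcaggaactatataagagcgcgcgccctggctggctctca
Bst2: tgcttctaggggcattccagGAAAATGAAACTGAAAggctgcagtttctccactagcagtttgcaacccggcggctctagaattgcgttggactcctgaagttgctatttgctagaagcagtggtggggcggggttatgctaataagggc
H2-T23: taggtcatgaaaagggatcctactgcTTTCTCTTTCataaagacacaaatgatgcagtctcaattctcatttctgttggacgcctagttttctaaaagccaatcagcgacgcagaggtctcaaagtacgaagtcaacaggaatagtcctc
Tgtp2: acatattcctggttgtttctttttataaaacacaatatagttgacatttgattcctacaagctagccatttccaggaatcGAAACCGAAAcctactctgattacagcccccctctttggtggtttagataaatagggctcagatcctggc

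Over promoters of 300 bases (250 before to 50 after the start), 65 of the 89 tested genes of the 4 interferon and antigen presentation lists had an entry. The element's letters were present for 27 of those 65 genes (41.5%) and for 1079 of all 27025 genes of the table (3.99%). Among the guanylate-binding and immunity-related GTPases 9 of 10 had it, among antiviral genes 14 of 33, among class I genes 4 of 16 and among class II genes 0 of 6. The letters of the interferon gamma activated site, TTCNNNGAA on both strands, were present for 15 of 65 (23.1%) against 9.55% of all genes. The Nkx2-5 core AAGTG on both strands was present for 38 of 65 (58.5%) against 49.99% of all genes. A match describes letters in this window and is not a measured binding site.

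The 4 lists together hold 89 tested genes, of which 84 had a difference above 0 (94.4%, against 42.6% of all features). For 53 of them (59.6%, against 7.4% of all features) every I183P array lay above every I183M array, and for 1 the reverse held. None passed the threshold, and their median difference was 0.34 against -0.04 over all features. The median level of the 89 genes relative to each gene's own mean over the 6 arrays was -0.17, -0.12 and -0.19 on the I183M arrays and 0.11, 0.12 and 0.33 on the I183P arrays. I183P replicate 3, the array on the other slide, read highest. Delta arrays, which lie on that slide too, read 0.20, -0.03 and 0.15. Control replicates 2 and 3 read -0.23 and -0.11, on the side of the I183M arrays. Within slide 1, without I183P replicate 3, the median difference was 0.30, with 80 of 89 above 0 (against 42.4% of all features) and 55 apart on the higher side (61.8%, against 13.6%). Without I183M replicate 1 it was 0.32, with 81 above 0 (against 42.8% of all features) and 63 apart (70.8%, against 12.6%). In bulk tissue more cells of a type and more RNA per cell cannot be told apart.

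**Figure D2:**
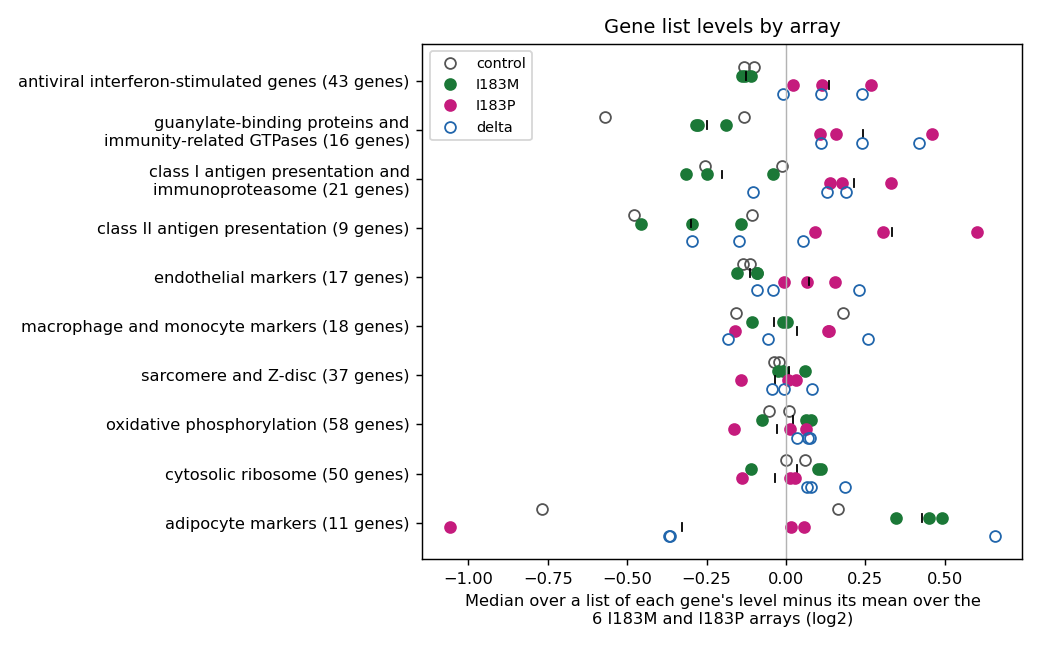
Level of 10 gene lists on each array: the median over a list's tested genes of the level minus that gene's mean over the 6 I183M and I183P arrays (log2, horizontal axis). Filled points are I183M (green) and I183P (pink) with their mean as a black bar, open points are control replicates 2 and 3 and the 3 delta arrays (control replicate 1 is not drawn). In the upper 4 lists the I183P points lie right of the I183M points, in adipocyte markers left of them, and in the muscle, respiratory and ribosomal lists they mix.

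Antiviral effectors recognise or restrain viral nucleic acids and particles, and 41 of 43 tested genes of that list lay above 0, with 21 apart on the higher side (48.8%) and a median difference of 0.27. Zbp1, a sensor of Z-form nucleic acid that can set off cell death, was at -1.72, -1.77 and -1.93 on the I183M arrays and -0.90, -1.20 and -1.06 on the I183P arrays. The groups stood apart by 0.75 (SE 0.11, limma adjusted p 0.23), although only 1 of its 2 tested probes had a difference above 0. Bst2 (tetherin), which holds budding virus at the membrane, was at 2.17, 2.29 and 2.27 on the I183M arrays and 2.84, 2.66 and 2.63 on the I183P arrays, with a difference of 0.47 (SE 0.095). All 3 I183P arrays were again above all I183M arrays. Oasl2, of the oligoadenylate synthetase family, differed by 0.54 (SE 0.12) and Ifit2, which binds foreign RNA, by 0.43 (SE 0.094), both with no overlap. Herc6 (-0.29) and Samd9l (-0.05), named after their values were seen, were the members below 0, and Herc6 read 0.07 after normexp and quantile normalization.

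Guanylate-binding proteins and immunity-related GTPases attack membranes around intracellular microbes. Of 16 tested members 15 lay above 0 and 12 lay apart on the higher side (75%), with a median difference of 0.46. Gbp4 was at -0.15, -0.04 and -0.09 on the I183M arrays and 0.87, 0.69 and 1.60 on the I183P arrays, and I183P replicate 3 read well above the other I183P arrays. Its difference was 1.15 (SE 0.24, limma adjusted p 0.26), a ratio of 2.21, and 0.87 within slide 1. Tgtp2, a GTPase named after T cells, was at 3.06, 2.67 and 2.54 on the I183M arrays and 3.52, 3.80 and 4.32 on the I183P arrays, with a difference of 1.13 (SE 0.25). Control replicates 2 and 3 read 2.65 and 3.57, one within the range of each substitution line. Gvin1, a very large interferon-inducible GTPase, differed by 0.70 (SE 0.11) and Ifi47 by 0.69 (SE 0.11), with narrow groups that did not overlap. The member below 0 was Tgtp1 (-0.52, and 0.04 after normexp and quantile normalization), a near-identical copy of Tgtp2 that was well above background on 2 I183M arrays and 1 I183P array. It too was named after its value was seen.

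Class I molecules show peptides cut by the immunoproteasome to cytotoxic T cells, and 20 of 21 tested genes of that list lay above 0, with 15 apart on the higher side (71.4%) and a median of 0.44. Psmb9, a catalytic subunit of the immunoproteasome, was at 0.86, 1.46 and 1.26 on the I183M arrays and 1.90, 1.90 and 2.09 on the I183P arrays. The difference was 0.77 (SE 0.17, limma adjusted p 0.264), and Psmb8, another such subunit, differed by 0.38 (SE 0.10). B2m, the light chain of class I molecules, was at 5.47, 5.51 and 5.21 on the I183M arrays and 5.75, 5.95 and 6.24 on the I183P arrays, with a difference of 0.58 (SE 0.16) and no overlap. H2-T23, the heavy chain of the Qa-1 molecule, differed by 0.48 (SE 0.12). Psmb9, Psmb8 and H2-T23 lie on chromosome 17, as Nkx2-5 does, and B2m lies on chromosome 2. Nlrc5, the transactivator of class I genes, was at -1.57, -1.77 and -2.46 on the I183M arrays and -1.30, -0.77 and -0.05 on the I183P arrays, so the gap between the groups was small beside the spread within them (difference 1.23, SE 0.38). Psme1, a proteasome activator subunit named after its value was seen, was the member below 0 (-0.11, and -0.06 after normexp and quantile normalization).

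Class II molecules present antigen on dendritic cells, macrophages and B cells. Of 9 tested genes 8 lay above 0, 5 lay apart on the higher side (55.6%) and 1 on the lower side, with a median of 0.70. Cd74, the invariant chain that escorts class II molecules, was at 3.40, 3.66 and 3.24 on the I183M arrays and 4.15, 4.22 and 4.17 on the I183P arrays. The I183P arrays lay close together and above all other arrays of the series, with a difference of 0.74 (SE 0.13, limma adjusted p 0.236). H2-Ab1 was at 4.67, 5.11 and 4.69 on the I183M arrays and 5.37, 5.62 and 5.93 on the I183P arrays, a difference of 0.82 (SE 0.19). H2-Eb1 differed by 0.81 (SE 0.22) and H2-Aa by 0.60 (SE 0.18), all chains of class II molecules. Ciita, the transactivator of class II genes, ran the other way, at -1.73, -2.64 and -0.44 on the I183M arrays and -2.84, -3.40 and -3.05 on the I183P arrays (-1.50, SE 0.55; -0.73 after normexp and quantile normalization). It was named after its value was seen, and on control replicate 1, the bright array, it read 0.31 against -3.28 and -3.56 on the other control arrays. H2-Ab1, H2-Eb1 and H2-Aa lie on chromosome 17, as Nkx2-5 does, and Cd74 lies on chromosome 18. The part of location on the chromosome of the altered gene was not tested.

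**Figure D3:**
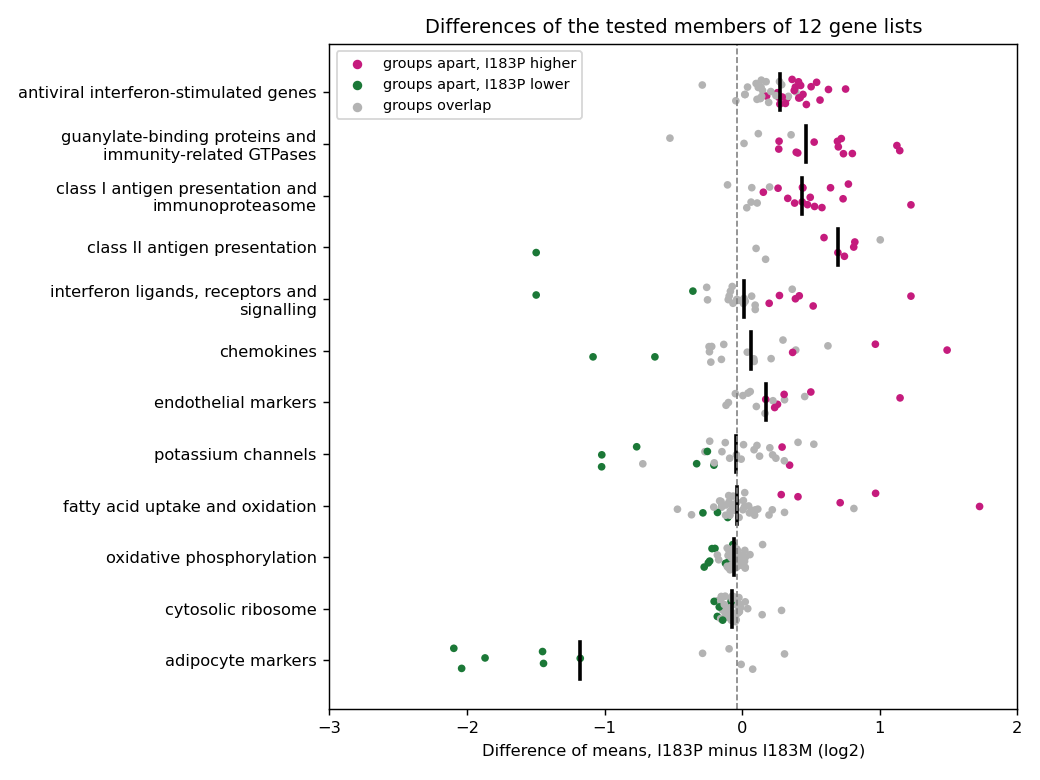
Difference of means between I183P and I183M (log2, horizontal axis) of each tested member of 12 gene lists, coloured where the 3 arrays of one group lay above all 3 of the other; black bars are list medians and the dashed line is the median of all features (-0.04). The medians of the upper 4 lists lie between 0.27 and 0.70, and that of adipocyte markers lies at -1.18.

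Upstream of these effectors, 13 of 24 tested ligands, receptors and signalling genes lay above 0, with 6 apart on the higher side (25%), 2 on the lower side (8.33%) and a median of 0.01. Nlrc5, apart on the higher side, and Ciita, apart on the lower side, are counted here and in the class I and class II lists as well. Irf8, a transcription factor of myeloid cells, was at 0.61, 0.54 and 0.45 on the I183M arrays and 1.08, 0.87 and 1.21 on the I183P arrays, with a difference of 0.52 (SE 0.12). Irf1, a factor induced by interferon gamma, differed by 0.39 (SE 0.11) and the receptor subunit Ifnar1 by 0.27 (SE 0.087), its 3 tested probes all above 0. Neither overlapped between the groups, and none of the 24 genes passed the limma threshold.

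Chemokines draw leukocytes into tissue, and the 18 tested genes divided: 10 lay above 0, 3 lay apart on the higher side (16.7%) and 2 on the lower side (11.1%). Cxcl10 and Cxcl9, interferon-induced ligands of the receptor Cxcr3 on T cells, were both higher in I183P. Cxcl10 was at -3.51, -4.11 and -4.07 on the I183M arrays and -3.08, -2.0 and -2.15 on the I183P arrays and was well above background on 1 I183M array and on 3 I183P arrays. The difference was 1.49 (SE 0.33, limma adjusted p 0.264) and 0.83 after normexp and quantile normalization, and that of Cxcl9 was 0.97 (SE 0.27). Ccl11 and Ccl24, eotaxins that act on the receptor Ccr3 of eosinophils, lay lower. Ccl24 was at -0.27, 0.06 and 0.16 on the I183M arrays and -0.59, -0.53 and -0.84 on the I183P arrays, a difference of -0.63 (SE 0.15), and Ccl11 differed by -1.08 (SE 0.37), with no overlap in either.

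Markers of leukocytes were read to set beside the interferon and antigen presentation genes. Of 18 macrophage and monocyte markers 14 lay above 0, but 1 lay apart on the higher side (5.56%) and 1 on the lower side, with a median of 0.08. Their summed linear level spanned 110.3 to 118.5 in I183M and 118.8 to 120.0 in I183P. Cx3cr1, the receptor of fractalkine on monocytes and resident macrophages, was that higher marker, at -0.77, -1.22 and -0.97 on the I183M arrays and 1.16, 0.41 and 1.29 on the I183P arrays. The difference of 1.94 (95% interval 1.29 to 2.59; limma adjusted p 0.229) is a ratio of 3.84, both of its probes were above 0, and the delta arrays read 0.59, 0.26 and 0.26. Mertk, a receptor by which macrophages engulf dying cells, was the lower one, at -0.28, -0.75 and -0.77 on the I183M arrays and -1.04, -0.99 and -1.10 on the I183P arrays. Fcgr4, a myeloid receptor for immunoglobulin G, differed by 1.32 (SE 0.18) with no overlap and was among the 24 named genes of smallest p.

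Among 9 B lymphocyte markers 7 lay above 0 and 3 lay apart on the higher side (33.3%), with summed levels of 3.27 to 3.69 in I183M and 3.56 to 4.08 in I183P. Cd79b, a chain of the B cell receptor, was at -1.44, -1.57 and -1.62 on the I183M arrays and -0.30, -0.97 and -0.83 on the I183P arrays, a difference of 0.84 (SE 0.19). Ms4a1 (CD20) differed by 1.47 (SE 0.43), and by 0.72 after normexp and quantile normalization, and was well above background on 1 I183M array and 3 I183P arrays. Of 10 T and NK cell markers 8 lay above 0, with a median of 0.08 and summed levels of 10.2 to 10.8 and 10.4 to 11.4. Lck, the kinase of the T cell receptor, differed by 0.49 (SE 0.15). Ncr1, a receptor of natural killer cells, was not well above background on any I183P array and was at least 3.54-fold lower, and it differed by -0.73 after normexp and quantile normalization. Of 7 dendritic cell markers 5 lay above 0, with Ccr7 at 0.76 (SE 0.29) and Batf3 at 0.41 (SE 0.14), while 6 of 7 neutrophil markers lay above 0 and 0 lay apart. Whether the number of such cells has a part in the interferon and class II values was not tested.

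Endothelial markers also lay higher in I183P hearts: 14 of 17 were above 0 and 6 lay apart on the higher side (35.3%), with a median of 0.17. Their summed level was 544 to 563 in I183M and 614 to 716 in I183P. Kdr, the main receptor of vascular endothelial growth factor, was at 4.37, 4.37 and 4.47 on the I183M arrays and 4.93, 4.79 and 4.99 on the I183P arrays. The groups stood apart by 0.50 (SE 0.091, limma adjusted p 0.239), and both probes were above 0. Cldn5, a tight junction protein, was at 2.04, 1.45 and 1.74 on the I183M arrays and 3.50, 2.91 and 2.25 on the I183P arrays, with a wide spread within I183P and a difference of 1.15 (SE 0.34). The receptor Tie1 differed by 0.24 (SE 0.085) and the secreted factor Egfl7 by 0.31 (SE 0.11). A separate list of endocardial and lymphatic endothelial markers ran the other way. Of its 9 tested genes 3 lay above 0, 0 lay apart on the higher side and 2 on the lower side (22.2%), with a median of -0.19. Endothelial cells also express class I genes, and the part of endothelial markers in the class I values was not tested.

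Fibroblast markers were mixed, with 12 of 18 above 0, 2 apart in each direction (11.1%) and a median of 0.05. Dpt (dermatopontin) was at 1.58, 1.57 and 1.58 on the I183M arrays and 1.06, 1.27 and 1.25 on the I183P arrays and Cilp differed by 0.60 (SE 0.24), so these matrix genes ran opposite ways. Among 14 smooth muscle and pericyte markers 2 lay apart on the higher side (14.3%), the pericyte genes Cspg4 (0.45, SE 0.15) and Pdgfrb (0.27, SE 0.097). The matrix and collagen list had a median of 0.03 with 22 of 39 above 0.

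Most adipocyte markers lay lower in I183P hearts. Of 11 tested 9 lay below 0 and 6 lay apart on the lower side, with a median of -1.18. The share apart was 54.5%, against 13.1% of all features and 25.6% of the decile of features with the lowest mean level. Cfd (adipsin), a complement protease of fat cells, was at 0.38, 0.82 and 1.00 on the I183M arrays and -0.40, -1.41 and -2.28 on the I183P arrays. The I183P arrays spread widely, and the difference was -2.10 (SE 0.48, limma adjusted p 0.266) and -1.63 after normexp and quantile normalization. Cidec, a protein of lipid droplets, was at -1.80, -1.83 and -2.37 on the I183M arrays and -2.88, -3.83 and -4.89 on the I183P arrays, lowest on I183P replicate 3. Its difference of -1.87 (SE 0.51) was -0.70 on the second scale. Plin1, a lipid droplet coat protein, differed by -1.45 (SE 0.32), but by -0.18 on the second scale, where its groups overlapped. The hormone Retn differed by -1.44 (SE 0.28) and by -0.65 on the second scale. These genes are dim, and the list's median was -0.29 after normexp and quantile normalization and -0.73 within slide 1. The summed level, which bright members set, was 289, 293 and 268 on the I183M arrays and 382, 344 and 251 on the I183P arrays. On this measure I183P replicates 1 and 2 lay above all I183M arrays, and replicate 3 below them. Control replicates 2 and 3 read -0.77 and 0.16 on the list level, and the part of the amount of fat in each apex piece was not tested.

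**Figure D4:**
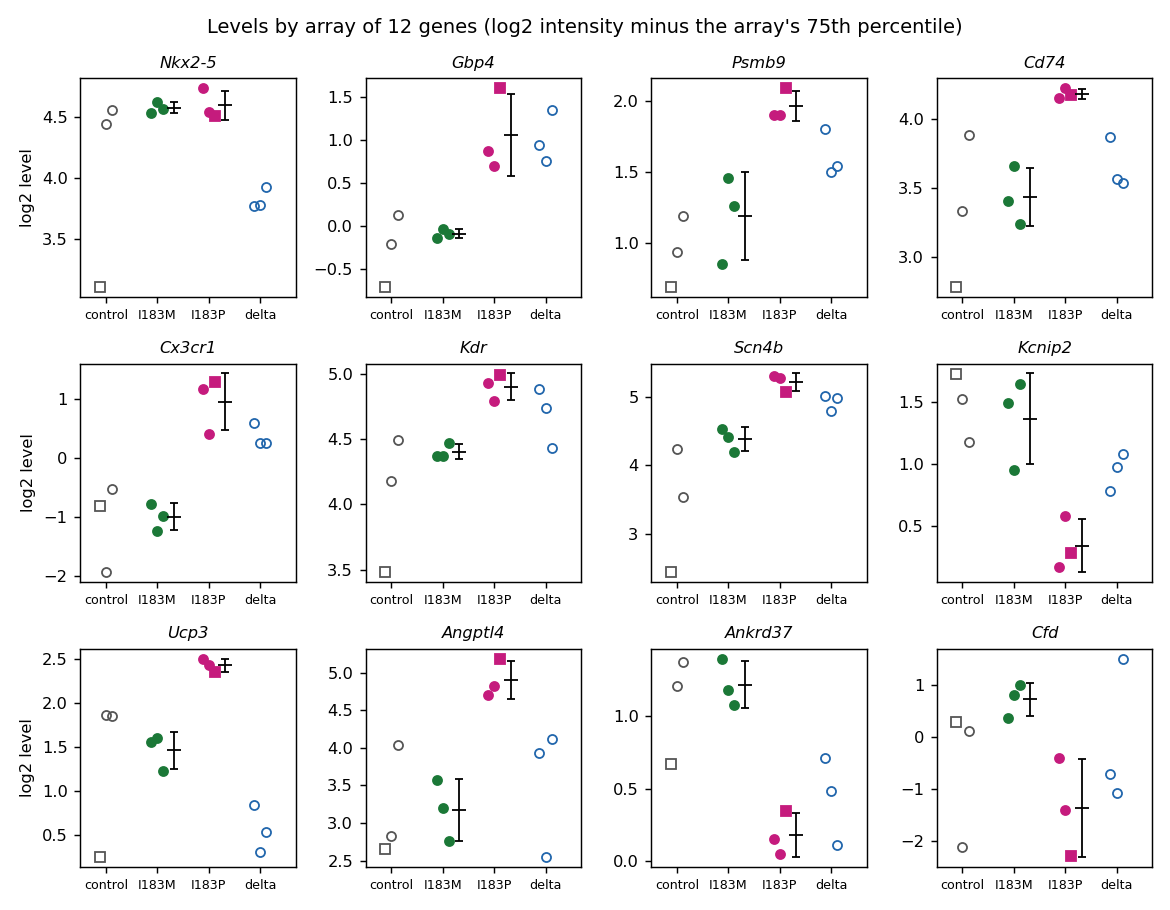
Levels of 12 genes on all 12 arrays (log2 intensity minus the array's 75th percentile, vertical axis), by group; filled points are I183M and I183P with mean and SD (n = 3) beside them, open points are control and delta, and squares mark control replicate 1 and I183P replicate 3. For each gene but Nkx2-5 the 3 I183M and the 3 I183P points lie apart.

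Genes that shape the cardiac action potential lay apart in a few members of each list. Of 27 potassium channel genes 12 lay above 0, 2 lay apart on the higher side (7.41%) and 6 on the lower side (22.2%), with a median of -0.04. Kcnip2, the subunit that traffics the channels of the transient outward current, was at 1.49, 0.95 and 1.65 on the I183M arrays and 0.17, 0.58 and 0.29 on the I183P arrays. The difference of -1.02 (SE 0.21, limma adjusted p 0.26) is a ratio of 0.493, and delta arrays read 0.78, 0.97 and 1.08, the first between the groups and the others within the I183M range. Kcna5, which carries an ultrarapid delayed rectifier current, was at 0.91, 0.89 and 0.44 on the I183M arrays and -0.54, 0.21 and 0.27 on the I183P arrays, lower in I183P on both probes (-0.77, SE 0.26). Kcne4, a channel beta subunit, differed by -1.02 (SE 0.19), and by -0.42 after normexp and quantile normalization.

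Scn4b, a beta subunit that tunes the opening and closing of the cardiac sodium channel, was at 4.53, 4.42 and 4.19 on the I183M arrays and 5.31, 5.27 and 5.07 on the I183P arrays. Its groups stood apart by 0.84 (95% interval 0.53 to 1.15; limma adjusted p 0.23), and it was the 1 of 14 tested sodium channel genes that lay apart (7.14%). Delta arrays read 5.01, 4.80 and 4.99, and control replicates 2 and 3 read 4.24 and 3.54. Of 18 connexin, pacemaker and conduction genes 9 lay above 0, with a median of 0.01. Irx3, a transcription factor of the fast conduction system, differed by 0.45 (SE 0.14) with no overlap. Cacna1d, a calcium channel of nodal cells, was not well above background on any I183P array and was at least 4.98-fold lower, with -0.89 after normexp and quantile normalization. For Cacna1d control replicates 2 and 3 read -3.80 and -4.84, control replicate 1 read 1.80, and delta arrays read -5.08, -0.85 and -1.71. Pcp4, a calmodulin-binding protein of Purkinje fibres, was at -2.27, -2.93 and -2.95 on the I183M arrays and -4.40, -2.90 and -4.22 on the I183P arrays, and its groups overlapped (-1.12, SE 0.44; -0.29 after normexp and quantile normalization). The secreted guidance protein Slit2 differed by -0.78 (SE 0.22), and by -0.41 after normexp and quantile normalization.

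Calcium cycling genes were balanced, with 14 of 31 above 0, 4 apart in each direction (12.9%) and a median of -0.01. Pln (phospholamban), the inhibitor of the calcium pump of the sarcoplasmic reticulum, was at 7.25, 7.28 and 7.33 on the I183M arrays and 6.93, 7.05 and 6.82 on the I183P arrays. The groups were tight and apart by -0.35 (SE 0.093, limma adjusted p 0.293). Atp2a1, a calcium pump of fast skeletal muscle, lay lower by -0.38 (SE 0.12), and the calcium release channel Itpr2 and the junction protein Jph1 lay higher, by 0.25 (SE 0.082) and 0.45 (SE 0.16). Among 35 genes of adrenergic and muscarinic signalling the median was -0.04. Gnao1, a G protein alpha subunit, was at 0.90, 0.96 and 1.02 on the I183M arrays and 1.73, 1.53 and 1.86 on the I183P arrays, a difference of 0.75 (SE 0.11). Pde2a, a phosphodiesterase stimulated by cyclic GMP, was at 4.86, 4.83 and 4.86 on the I183M arrays and 5.21, 5.12 and 5.20 on the I183P arrays, so a difference of 0.32 (SE 0.077) left no overlap. Pde1c, a calmodulin-dependent phosphodiesterase, differed by -0.66 (SE 0.20) with all 3 probes below 0, and Prkar1a, a regulatory subunit of protein kinase A, by -0.24 (SE 0.084).

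Of 30 tested cardiac transcription factors 19 lay above 0, 5 lay apart on the higher side (16.7%) and 4 on the lower side (13.3%), with a median of 0.10. Tbx2, a T-box repressor of the atrioventricular canal, was at -0.85, -0.81 and -0.61 on the I183M arrays and -0.10, -0.30 and -0.19 on the I183P arrays, a difference of 0.56 (SE 0.11). Tead1, the partner of Yap in heart muscle, was at 3.63, 3.59 and 3.54 on the I183M arrays and 4.16, 3.93 and 3.87 on the I183P arrays, with its 3 probes above 0 and a difference of 0.40 (SE 0.11). Tbx18, a factor of the sinus node region and epicardium, lay higher by 0.43 (SE 0.13), and the Notch target Hey1 lay lower by -0.49 (SE 0.13). In the list of BMP, TGF-beta, Notch and Wnt signalling 5 of 46 lay apart on the higher side (10.9%) and 7 on the lower side (15.2%). Its members of smallest p were Id3, a target of BMP signals (-0.32, SE 0.076), the ligand Tgfb2 (0.37, SE 0.10), Hey1, and its relative Heyl (0.41, SE 0.12).

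Sarcomere and stress genes lay apart in few members. Of 37 sarcomere and Z-disc genes 1 lay apart on the higher side (2.70%) and 2 on the lower side (5.41%), with a median of 0.01. Actn2, the actinin of the Z-disc, differed by -0.24 (SE 0.078), but by -0.14 with overlapping groups after normexp and quantile normalization. The muscle ubiquitin ligase Fbxo32 differed by 0.53 (SE 0.19). Nppa, the atrial natriuretic peptide gene, was at 5.34, 3.99 and 4.27 on the I183M arrays and 5.80, 5.24 and 5.17 on the I183P arrays. Its groups overlapped, the difference of 0.87 had an interval that includes 0 (95% interval -0.09 to 1.83), and both lines read below control replicates 2 and 3 (6.68 and 6.54). Npr3, the clearance receptor of natriuretic peptides, differed by -0.36 (SE 0.11) and Ccn2, a matrix-associated growth factor, by -0.68 (SE 0.26).

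In energy metabolism single genes of fatty acid use lay higher in I183P while the lists stayed near 0. Of 41 tested genes of fatty acid uptake and oxidation 19 lay above 0, 5 lay apart on the higher side (12.2%) and 4 on the lower side (9.76%), with a median of -0.04. Angptl4, a secreted inhibitor of lipoprotein lipase that fatty acids induce through PPAR receptors, was at 3.57, 3.20 and 2.76 on the I183M arrays and 4.70, 4.82 and 5.19 on the I183P arrays. The difference of 1.73 (95% interval 1.13 to 2.32; limma adjusted p 0.23) is a ratio of 3.31, and 1.58 within slide 1. Ucp3, an uncoupling protein of the mitochondrial membrane, was at 1.56, 1.61 and 1.23 on the I183M arrays and 2.51, 2.43 and 2.36 on the I183P arrays, a difference of 0.97 (SE 0.13) seen on both probes. Delta hearts lay on the other side of I183M for this gene, at 0.84, 0.31 and 0.54, and control replicates 2 and 3 both read 1.86. Ppargc1b, a coactivator of mitochondrial genes, differed by 0.71 (SE 0.14) and Cpt1a, which loads fatty acids for import into mitochondria, by 0.41 (SE 0.11).

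Of 58 subunits of oxidative phosphorylation 50 lay below 0 and 8 lay apart on the lower side (13.8%, against 13.1% of all features), but the median was -0.06. The examples of smallest p were Cyc1 of complex III (-0.24, SE 0.086) and Ndufs8 (-0.28, SE 0.10) and Ndufa10 (-0.25, SE 0.092) of complex I. Ribosomal proteins were alike, with 46 of 50 below 0, 5 apart on the lower side (10%) and a median of -0.07. On the list level I183P replicate 3, the array on the other slide, read lowest of all I183M and I183P arrays for both lists. For oxidative phosphorylation the I183M arrays read -0.07, 0.06 and 0.08 and the I183P arrays 0.01, 0.06 and -0.16. For ribosomal proteins they read -0.11, 0.11 and 0.10 against 0.03, 0.01 and -0.14. The brightest decile of all features had a median of -0.04 and after normexp and quantile normalization of -0.0025. Glycolysis had a median of -0.06, with the glucose transporter Slc2a1 at -0.32 (SE 0.13) and brain-type glycogen phosphorylase, Pygb, at -0.25 (SE 0.091).

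Among heat shock and unfolded protein genes 5 of 25 lay apart on the lower side (20%), with a median of -0.04. Dnajb1, a co-chaperone of Hsp70, was at 3.96, 4.49 and 4.0 on the I183M arrays and 3.15, 3.39 and 3.34 on the I183P arrays. The difference was -0.86 (SE 0.17, limma adjusted p 0.249) and the same after normexp and quantile normalization (-0.86). Dnaja1 was at 4.55, 5.34 and 4.79 on the I183M arrays and 4.34, 4.21 and 4.23 on the I183P arrays and the inducible Hspa1a at -1.69, -0.37 and -1.58 on the I183M arrays and -2.69, -2.92 and -1.96 on the I183P arrays, with differences of -0.64 (SE 0.21) and -1.30 (SE 0.43). That of Hspa1a was -0.79 on the second scale. On delta replicate 3 Hspa1a read 2.43, above all 6 arrays. Herpud1, a gene of the unfolded protein response, lay higher by 0.27 (SE 0.076). Of 20 tested clock genes 11 lay above 0, 3 lay apart on the lower side (15%) and the median was 0.03. The clock repressor Bhlhe40 differed by -0.41 (SE 0.10). Immediate early genes lay mostly below 0 (16 of 22), with 2 apart in each direction (9.09%) and a median of -0.06. Egr1, among the members above 0, differed by 0.42 (SE 0.12). Cell cycle genes, mostly dim, had 20 of 28 above 0, 4 apart on the higher side (14.3%) and a median of 0.31, with Cenpe at 0.51 (SE 0.20) and Ccne1 at 0.26 (SE 0.11).

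Of single genes with the smallest p, Efr3b, Atp8a2, Ankrd37 and Flvcr2 kept a similar size on both scales. Efr3b, which anchors a lipid kinase at the plasma membrane, was at 1.45, 1.46 and 1.55 on the I183M arrays and 2.37, 2.33 and 2.45 on the I183P arrays. The difference of 0.90 (95% interval 0.69 to 1.1; limma adjusted p 0.13) was 0.88 after normexp and quantile normalization, and delta arrays read 2.12, 2.23 and 2.54, around the I183P arrays. Atp8a2, a phospholipid flippase, was at -0.08, -0.16 and -0.29 on the I183M arrays and -1.15, -1.24 and -1.16 on the I183P arrays, with -1.01 (-0.77 on the second scale). Ankrd37, a known target of hypoxia-inducible factor, was at 1.40, 1.18 and 1.07 on the I183M arrays and 0.15, 0.05 and 0.35 on the I183P arrays, with -1.04 (-0.89). Flvcr2, a membrane transporter, differed by -1.12 (-0.75). These genes all had groups that did not overlap, and limma adjusted p of 0.13 to 0.223.

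Other genes of smallest p shrank by more than 1.5 times on the second scale, some of them well above background on all 6 arrays. Srarp, Edem2 (an enzyme of glycoprotein disposal in the endoplasmic reticulum), Slc5a3 (an inositol transporter), Noxred1, Tssk1 and Cldn34c1 differed by -1.10, -1.12, -0.96, -1.61, -0.80 and -1.10, and after normexp and quantile normalization by -0.49, -0.42, -0.23, -0.90, -0.19 and -0.12, where Tssk1 and Cldn34c1 overlapped between the groups. The retinoid transporter Abca4 was not well above background on I183P arrays and was at least 2.97-fold lower (-0.47 on the second scale), and Neurl3, a ubiquitin ligase, was at least 1.77-fold higher (0.52). Ankrd7, Calca (which encodes calcitonin gene-related peptide) and the odorant receptors Olfr828, Olfr352, Olfr767, Olfr830 and Olfr670 were well above background on the I183M arrays and on no I183P array, at least 3.17-, 3.18-, 4.45-, 3.36-, 3.01-, 4.54- and 3.46-fold lower. Their differences after normexp and quantile normalization lay between -1.21 and -0.63, and on control replicate 1 they read -0.40 to 1.18, against -7.18 to -4.15 on the other control arrays.

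Of the 22493 features tested, detection on the arrays of 1 line alone concerned 36 (22 with a symbol) in I183P and 135 (47 with a symbol) in I183M. Each of these passed the filter through its bright group only. Probes well above background on none of the 6 arrays read lower on I183P replicates 1 and 3 (-6.41 and -7.36) than on all I183M arrays. In I183P the largest bounds were those of Cyp1a1, a cytochrome P450 induced by the aryl hydrocarbon receptor (at least 4.13-fold higher), the proton pump subunit Atp6v0a4 (2.21-fold), the lipoxygenase Aloxe3 (2.05-fold), the zinc finger factor Mecom (2-fold) and Btla, an inhibitory receptor of lymphocytes (1.92-fold), each a lower bound. On the second scale these 5 differed by 1.37, 0.92, 0.68, 0.67 and 0.70. Cyp1a1 was at -5.63, -4.57 and -6.15 on the I183M arrays and -3.12, -2.10 and -1.25 on the I183P arrays, and delta replicate 3 read 0.03, above all 6 arrays. Aloxe3 and Mecom were brightest on I183P replicate 1 (-1.33 and -1.38) and read -4.50 and -4.53 on replicate 3. The intervals of their differences include 0 (1.39, 95% interval -0.57 to 3.35; 1.40, 95% interval -0.65 to 3.46), and for Mecom the groups overlapped, with I183M arrays at -4.31, -5.25 and -4.18. In I183M the largest were Olfr995 (at least 7.59-fold), Hsfy2 (5.19-fold), Olfr433 (5.04-fold), Olfr71 (4.99-fold) and Cacna1d. The first 4 differed by -1.28, -0.89, -1.39 and -1.03 on the second scale, again smaller folds than their bounds. All 5 read far higher on control replicate 1 than on control replicates 2 and 3, and the part of array background in these values was not tested.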

How the data were processed

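RNA of the heart apex was labelled with Cy3 and hybridised to single-colour Agilent arrays of 59305 spots (55681 probes). Per the file headers, Agilent Feature Extraction 11.0.1.1 quantified the scans, and the deposited scanner files give an intensity per spot that is corrected for background within the array and not normalized between arrays. The submitters' processing notes name Agilent Feature Extraction and limma. The authors deposited a table of log2 values of the same arrays as well. Per array it correlated at 0.996 or above (Pearson) with values normalized here by normexp and quantile, its exact steps are not given in the sources used here, and it served as an alternative.

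The log2 processed intensity was taken without control and outlier spots, spots of a probe were averaged, and the 75th percentile of the array was subtracted. Accessions were matched to a RefSeq gene table (GRCm38.p6), which named 27229 of 55681 probes. Probes that fewer than 3 of the 6 arrays read well above background were dropped, and of several probes left for a gene the one of highest mean stands for it. The test covered 22493 features, 14259 with a symbol. limma 3.58.1 in R 4.3.3 (lmFit, eBayes) was fitted on the 6 arrays, with Benjamini-Hochberg adjustment over all features and a threshold of 0.05. Every adjusted p in the text is from this fit. The fit was tested on simulated data with known answers.

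For a probe that no array of 1 group read well above background, a lower bound of the fold is given. It sets the mean of the bright group against that of the dim group, in which each array counts with its own value or with its lowest signal well above background, whichever is higher. The bound has no error term, and the difference after normexp and quantile normalization can be a smaller fold. The 43 gene lists (983 symbols, 844 genes tested) and the samples compared were chosen with earlier results of these data known. Lists are described by counts and medians with no test. Named are Nkx2-5, the 24 symbols of smallest p, up to 5 genes per direction detected in 1 group alone by largest bound, and up to 4 members of each list by smallest p; genes named after their values were seen are marked, and 3 genes that the rule names are not reported here. Replicate numbers are shared by the groups, and the labels do not say whether they pair the samples. Deviations of same-numbered arrays from their group means correlated at -0.16, -0.143 and -0.0109 over features. With 3 arrays per group such correlations cannot settle the pairing, and the main fit has no block. A list's share apart counts members whose 3 arrays of 1 group all lie above the 3 of the other. There were 19 alternatives and 2 added after seeing the data. The number of arrays limits the precision.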

Additional observations from a re-analysis of the deposited data

How the results depend on the processing

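None of the 22493 features passed in this comparison, and the count stayed at 0 under 18 of 21 alternatives of normalization, filter, samples, slide and variance model. Subtracting each array's median gave 602, and leaving out 1 array gave 0 to 4: 4 without I183M replicate 1 and 2 without I183M replicate 2, all lower in I183P. With the median, all differences shifted by 0.56 (their median moved from -0.04 to 0.52), and limma gave every feature the same standard error of 0.41, where the 75th percentile scale gave 0.072 to 3.46. Relative to that shift 843 features passed there, 34 higher and 809 lower, among them 31 of the genes named in the text. The difference of Nkx2-5, 0.02, was -0.0197 with normexp and quantile normalization, -0.0300 with the authors' processed values, -0.0385 with normexp and quantile normalization without I183M replicate 1, and -0.0488 to 0.0625 when 1 array was left out. The cause was not tested. The median of adipocyte markers, -1.18, was -0.29 with normexp and quantile normalization, -0.66 with quantile normalization of the processed signal, -0.29 with the authors' values, -0.29 over members well above background on all 6 arrays, -0.29 with normexp and quantile normalization without I183M replicate 1 and -0.22 with it within slide 1, and ranged from -1.43 to -0.73 when 1 array was left out. The median of the guanylate-binding and immunity-related GTPases ranged from 0.37 to 0.66 when 1 array was left out, the highest without I183M replicate 2. Herc6 was 0.0673 with normexp and quantile normalization, 0.18 with quantile normalization of the processed signal, 0.0864 with the authors' values and 0.0654 with normexp and quantile normalization within slide 1. Tgtp1 was 0.0369, 0.21 and 0.0892 under the first 3 of these, and Samd9l ranged from -0.135 without I183P replicate 3 to 0.0264 without I183P replicate 1. The other named genes kept their direction under all alternatives run, where differences with the median are taken relative to its shift of 0.56. Ankrd7 passed without I183M replicate 1 (limma adjusted p 0.04). With the replicate number as a block 0 features passed (smallest limma adjusted p 0.227), and the block changed no call. Slide as a block on 11 arrays, without control replicate 1, gave a median of 0.30 for the 89 interferon and antigen presentation genes. Signal over background limits the dim genes, whose differences on the 75th percentile scale and after normexp differ most.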

Other observations

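Red cell, atrial and skeletal muscle markers are given here as they belong to no comparison above. All 6 tested erythroid markers lay above 0, 3 of them with every I183P array above every I183M array, with a median difference of 0.26 and summed linear levels of 565 to 681 in I183M and 707 to 849 in I183P. None passed the limma threshold, and 1665 of all 22493 features (7.4%) lay apart in that direction. Of 11 tested atrial markers 6 lay above 0 and 1 lay apart on the higher side, with summed levels of 108 to 148 in I183M and 156 to 201 in I183P. Skeletal muscle markers had summed levels of 109 to 145 in I183M and 123 to 212 in I183P, with 7 of 13 above 0. Mast cell markers had a median of -0.07 over 6 tested genes. Among them Cma1, a chymase, differed by -0.87 (SE 0.17, limma adjusted p 0.247) on the 75th percentile scale and by -0.13 after normexp and quantile normalization.

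Within the 4 interferon and antigen presentation lists, the letters of the interferon-stimulated response element were present in the promoter of 21 of 40 genes whose groups lay apart on the higher side (52.5%) and of 6 of 25 others (24%). These shares are a description with no test, since genes of 1 family can share promoter sequence and the lists were chosen with earlier results known.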
